A study of Mus musculus with 9 samples.

Results

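In mouse myeloid cells, 185 genes had a level in the libraries labelled KO that lay outside the whole range of both wild-type groups. They were chosen from 54532 genes in an RNA-seq table of FPKM values (fragments per kilobase of exon, scaled to the fragments of the library). A gene entered if it reached 1 FPKM in at least 3 of the 9 libraries, if all 3 KO libraries lay above or all lay below the other 6, and if the KO mean differed at least 1.5-fold from the fl mean and from the Gr_1 mean. The filter kept 12289 genes, and 102 were higher and 83 lower in KO. The measured levels thus chose the genes, so every difference of KO from fl or from Gr_1 given here is a description, with no test.

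The 9 libraries were made from total RNA of cells that the labels call myeloid and, as source, white cells, taken from C57BL/6 mice of 6 to 8 weeks. Each group, KO, fl and Gr_1, held 3 libraries, lettered A, B and C. The genotype was given as SOCS3 KO for the KO group and as wild type for fl and Gr_1. The labels do not spell out what fl and Gr_1 stand for, name no promoter or Cre line behind the deletion, mention no treatment and give no animal for any replicate library. P-values therefore measure only the spread among libraries, and that spread may be technical.

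Socs3 encodes a suppressor of cytokine signalling that binds the receptor complexes of IL-6 and G-CSF and limits signalling through STAT3, and loss of Socs3 is known to raise granulocyte output in mice. The bone marrow and spleen populations from which myeloid cells are taken also hold basophils, which carry the IgE receptor and granule proteases, NK cells, which kill through perforin and granzymes, T cells, and stem and progenitor cells. Monocytes and macrophages, in turn, are marked by lysozyme, scavenger receptors and pattern receptors. Levels of such genes in bulk RNA move with the number of cells of a type and with the RNA per cell, and these cannot be told apart here.

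The targeted gene did not lie outside the wild-type range. Socs3 had 9.23, 6.76 and 8.37 FPKM in KO A, B and C, 3.87, 4.02 and 3.40 in fl and 37.0, 36.6 and 33.0 in Gr_1, so KO lay between the other groups. Every direction below rests on the label KO. All 9 myeloid markers reached 1 FPKM in each KO library. Recovered depth lay between 18.3 and 21.5 M fragments per library (M for mega), and 3 fragments of a gene with 1 kilobase of exon equal 0.136 to 0.187 FPKM, which covers counting error only.

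KO C stood apart in its sex-linked RNA. Xist, which coats the inactive X in female cells, had 0.0028 FPKM in KO A, 58.5 in KO B and 26.3 in KO C, and was at or below 0.0104 in the other libraries. The Y-linked genes Uty, Kdm5d, Ddx3y and Eif2s3y, 4 in all, summed to 26.5 FPKM in KO A, 0 in KO B and 14.2 in KO C, against 16.6 to 39.3 in fl and Gr_1. KO A thus held only male and KO B only female RNA by these genes, while KO C held both. Whether KO C shares RNA with KO A and KO B was not tested.

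KO C also lay between KO A and KO B in most of the chosen genes. It was the middle library in 82 of the 102 higher genes (80.4%) and in 58 of the 83 lower genes (69.9%), beside 61.5% of all genes that passed the filter. In fl the most frequent middle library was fl B, at 44.2% of all genes, and in Gr_1 it was Gr_1 B, at 42.3%. KO B was the highest KO library in 76 of the 102 higher genes and the lowest in 52 of the 83 lower genes, so the genes departed farthest from wild type in KO B. KO B was also the only library without Y-linked RNA, while all fl and Gr_1 libraries were male by Xist and the Y-linked genes. Sex and the place of KO B therefore cannot be told apart. Over the higher genes, KO C had a median place of 0.47 on a scale from KO A (0) to KO B (1), and over the lower genes of 0.50. With KO C left out, the rule gave 102 higher genes, 76 of them the same, and 110 lower genes, 76 of them the same.

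**Figure D1:**
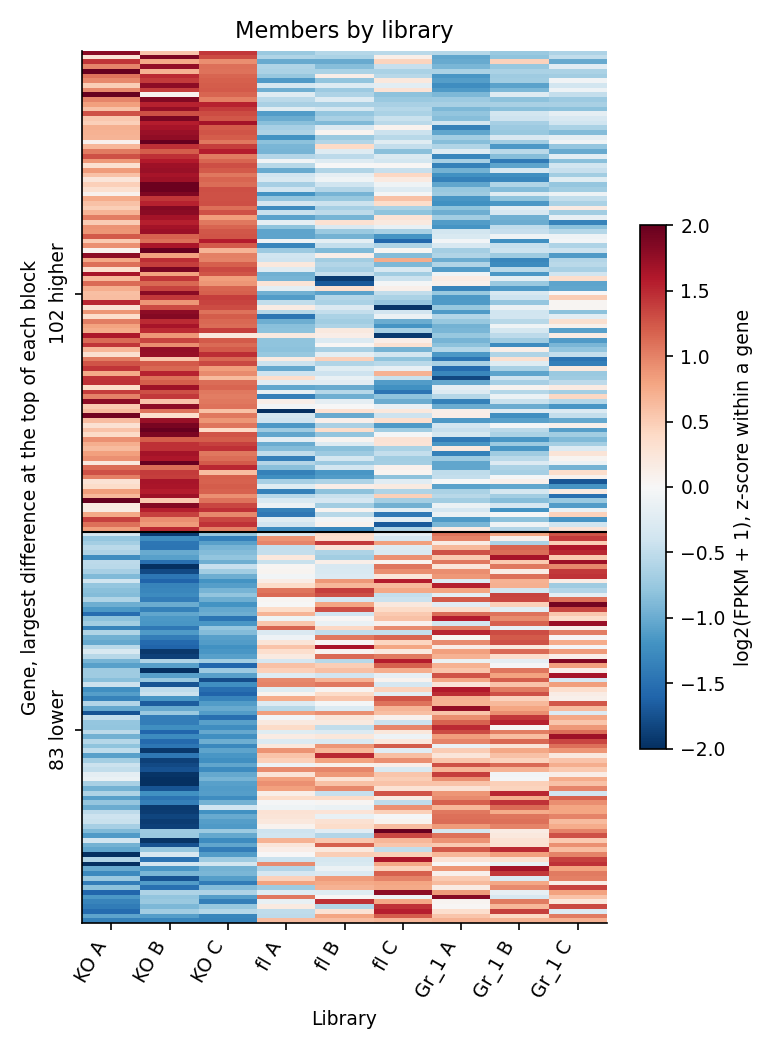
Rows are the 102 higher and 83 lower genes, columns the 9 libraries, and colour gives log2(FPKM + 1) as a z-score within each gene. The KO B column is the deepest red in most higher genes and the deepest blue in most lower genes, with KO C between KO A and KO B.

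Groups that do not overlap were more frequent than the list of 185 shows. All 3 KO libraries lay above the other 6 in 383 genes, 3.12% of those that passed the filter, and below them in 560 genes, 4.56%. Of these, 281 and 477 differed by under 1.5-fold from the fl or the Gr_1 mean and were left out. Just inside the limit stood Abhd14a (1.501-fold) and Usp11 (1.504-fold) of the higher genes and Endod1 (1.50045-fold) and Zfp36 (1.501-fold) of the lower genes. Among the genes just outside it were Eml5 (1.499-fold higher), Ighv1-82 (1.499-fold lower) and Bach1 (1.498-fold lower). The balance of directions moved with the scale. After FPKM were rescaled without the 10 most abundant genes the rule gave 148 higher and 54 lower genes, and after rescaling to TPM, which sets every library to the same total, 165 higher and 46 lower.

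**Figure D2:**
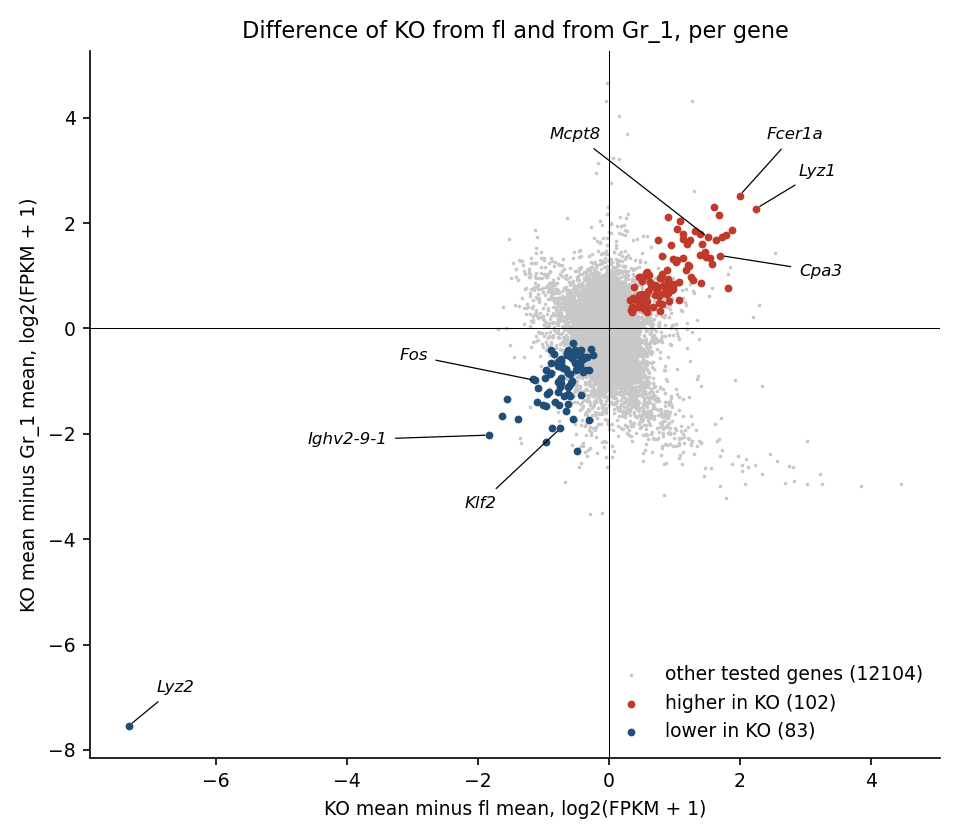
Each point is 1 of the 12289 genes, with the KO minus fl difference of mean log2(FPKM + 1) on the horizontal axis and the KO minus Gr_1 difference on the vertical axis. The 102 higher genes (red) fill the upper right and the 83 lower genes (blue) the lower left, with Lyz2 far from all others.

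Most of the higher genes were scarce RNAs and the lower genes somewhat less so. The higher genes had a median level of 3.05 FPKM in KO, 1.28 in fl and 1 in Gr_1, and the lower genes of 1.92, 4.63 and 5.78, beside a median of 6.45 FPKM over all genes and libraries. Of the higher genes, 42 passed the filter through the KO libraries, since fewer than 3 of the other 6 reached 1 FPKM, and such genes had to be higher in KO. Of the lower genes, 24 were below 1 FPKM in all 3 KO libraries. Together 37 of the 185 rested on under 30 fragments in their lowest group and 112 on at least 100 fragments in every group.

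The size of the departure was modest for most. Median folds of the higher genes were 2.57 against fl and 2.49 against Gr_1, with 56 genes at 2-fold and 24 at 3-fold or more from both. For the lower genes the wild-type means exceeded the KO mean 1.80-fold (fl) and 2.22-fold (Gr_1) at the median, with 27 genes at 2-fold and 14 at 3-fold or more from both. On the scale of log2(FPKM + 1) the medians were 0.85 and 0.88 for the higher genes and -0.65 and -0.85 for the lower genes, beside -0.01 and 0.01 over all genes.

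Within a group the libraries of these genes spread more than those of other genes. The highest KO library exceeded the lowest 1.53-fold at the median of the higher genes and 1.54-fold at that of the lower genes, against 1.20-fold over all genes. In 8 of the 185 genes the 3 KO libraries lay within 1.1-fold of each other, a feature of 24.6% of all genes. Cpa3, Wdfy1, Galnt6, Cdk5rap1 and Tmem181b-ps were the 5 higher genes among these, and Zfp36, Trf and Ighv1-75 the 3 lower ones.

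Basophil and mast cell genes were among the most abundant of the higher genes. Of 22 such genes that passed the filter, 12 were higher and none lower by the rule, 54.5% of the list beside 0.830% of all genes. The list had a median difference of 0.87 on the log2(FPKM + 1) scale against fl and 1.02 against Gr_1. Of the other 10, limma called 4 higher in KO than in fl, and 5 higher and 3 (Alox5, Hdc and Ifitm1) lower than in Gr_1. Over all genes it called 4.48% higher and 6.52% lower in KO than in fl, and 26.7% higher and 28.9% lower than in Gr_1. The listed proteases Mcpt4, Cma1, Tpsb2 and Tpsab1 did not pass the filter. The 12 higher genes include the proteases Prss34, Mcpt8 and Cpa3, 2 IgE receptor chains (Fcer1a and Ms4a2) and the transcription factor Gata2. The upstream sequences of 4 of them are printed here because they show which carried the motif AGATAA, or TTATCT on the other strand, which GATA factors bind. They come from RefSeq (GRCm38.p6), each holds the 250 bases before the annotated start and is read 5′ to 3′ on the gene's strand, and capitals mark the motif.
Cpa3 chr3:20242182-20242431, minus strand: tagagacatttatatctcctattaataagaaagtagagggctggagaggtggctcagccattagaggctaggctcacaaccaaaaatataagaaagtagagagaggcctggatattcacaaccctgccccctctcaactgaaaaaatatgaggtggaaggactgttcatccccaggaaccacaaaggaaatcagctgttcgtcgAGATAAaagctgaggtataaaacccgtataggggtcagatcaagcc
Ms4a2 chr19:11623720-11623969, minus strand: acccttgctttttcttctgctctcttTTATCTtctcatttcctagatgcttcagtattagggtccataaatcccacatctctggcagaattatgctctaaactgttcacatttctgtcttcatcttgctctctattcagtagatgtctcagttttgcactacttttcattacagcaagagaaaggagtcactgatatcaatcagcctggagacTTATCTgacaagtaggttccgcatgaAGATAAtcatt
Prss34 chr17:25298144-25298393, plus strand: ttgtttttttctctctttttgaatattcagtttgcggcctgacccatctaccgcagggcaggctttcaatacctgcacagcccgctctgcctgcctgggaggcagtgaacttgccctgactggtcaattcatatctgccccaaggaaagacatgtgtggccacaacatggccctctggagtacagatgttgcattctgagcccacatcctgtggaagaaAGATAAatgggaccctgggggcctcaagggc
Mcpt8 chr14:56085198-56085447, minus strand: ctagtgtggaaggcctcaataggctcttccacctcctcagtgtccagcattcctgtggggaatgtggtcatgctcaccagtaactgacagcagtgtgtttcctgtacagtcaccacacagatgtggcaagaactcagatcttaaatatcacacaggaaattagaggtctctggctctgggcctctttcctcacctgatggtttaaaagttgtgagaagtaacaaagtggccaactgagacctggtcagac

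Cpa3, Ms4a2 and Prss34 carry the motif, Ms4a2 at 3 places, and Mcpt8 does not. In Cpa3 it begins at -46 and in Prss34 at -31, counted back from the start. Of 12 basophil and mast cell genes in the higher set, 11 had such a window and 6 held the motif, the others being Fcer1a, Cd200r3 and Il1rl1. Over all genes with a window the share was 5.77% (486 of 8427), over the higher genes 23% (14 of 61) and over the lower genes 0 of 37. Base composition moved with this count, since the windows held 44.4% G and C at the median of the basophil and mast cell genes, 50.8% in the higher genes, 62.8% in the lower genes and 59.6% in all genes. The part of base composition in the count was not tested.

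Prss34 and Mcpt8, both serine proteases of basophil granules, had the highest levels of the group. Prss34 had 201, 267 and 234 FPKM in KO A, B and C, against 51.5, 64.5 and 124 in fl and 52.8, 68.9 and 103 in Gr_1. Mcpt8 had 99.3, 130 and 118 FPKM in KO, 28.6, 33.6 and 64.9 in fl and 25.8, 30.1 and 50.6 in Gr_1. For both genes fl C and Gr_1 C were the highest wild-type libraries and still lay below every KO library. The KO mean was 2.93-fold above fl for Prss34 and 2.73-fold for Mcpt8.

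Fcer1a encodes the alpha chain of the IgE receptor. It had 5.75, 28.1 and 16.2 FPKM in KO, 2.05, 1.98 and 4.88 in fl and 1.06, 1.55 and 2.38 in Gr_1. KO A stood near fl C, and KO B was the highest library by far. Ms4a2, the gene of the beta chain of the same receptor, was more even, with 7.75, 8.55 and 6.85 FPKM in KO, 2.75, 2.86 and 3.27 in fl and 1.71, 2.33 and 3.46 in Gr_1.

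Cpa3, the carboxypeptidase of mast cell and basophil granules, was the most even of the strongly higher genes. Its levels were 18.1, 18.3 and 18.4 FPKM in KO, 4.07, 5.14 and 5.67 in fl and 5.10, 6.72 and 7.53 in Gr_1, a KO mean 3.68-fold above fl and 2.83-fold above Gr_1. Mir7007, a microRNA gene that lies within Cpa3 on the same strand of chromosome 3, was also chosen, on 11 fragments in KO and none in fl or Gr_1. Against 3 fragments over the group its level was at least 3.6-fold higher than in fl and at least 2.96-fold higher than in Gr_1. A library of total RNA fragments does not separate a mature microRNA from its host transcript.

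Gata2, a transcription factor of progenitors, mast cells and basophils, had 9.95, 14 and 13 FPKM in KO, 4.38, 4.49 and 9.16 in fl and 3.52, 4.36 and 5.17 in Gr_1. Here fl C came within 1.09-fold of KO A. Gata1, a factor of erythroid, mast cell and eosinophil development, was higher in a narrower range, with 8.98, 7.49 and 8.05 FPKM in KO, 3.84, 5.31 and 5.92 in fl and 3.81, 3.19 and 3.66 in Gr_1. The cytokine gene Il6 had 2.53, 8.09 and 5.43 FPKM in KO, 1.46, 1.83 and 2.38 in fl and 0.231, 0.272 and 1.57 in Gr_1, and Il1rl1, the IL-33 receptor, 2.58, 2.67 and 2.13 against 1.08 to 1.78 and 1.40 to 1.96.

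NK cell and cytotoxic genes were the other list with many genes in the higher set. Of 32 listed, 16 passed the filter and 12 of these were higher (75%, beside 0.830% of all genes). The median difference was 0.996 from fl and 1.69 from Gr_1 on the log2(FPKM + 1) scale. Of the other 4, limma called 0 in KO against fl, and 3 (Ccl5, Klrb1f and Nkg7) higher and 0 lower than in Gr_1. Over all genes it called 4.48% higher and 6.52% lower in KO than in fl, and 26.7% higher and 28.9% lower than in Gr_1. Some of the 12 higher genes, such as Ncr1 and Klra7, passed the filter only through the KO libraries and could only be chosen as higher. Of the 5 NK cell markers summed below, all in the higher set, 2, 3 and 2 reached 1 FPKM in fl A, B and C. In Gr_1 A, B and C these numbers were 1, 1 and 0. The list gave 8 higher genes without KO C, 3 when each of the 3 groups had to average 1 FPKM and 2 with a filter of 5 FPKM, against 13, 7 and 6 for the basophil and mast cell list. Xcl1, a chemokine of NK and T cells, had 3.75, 12 and 7.30 FPKM in KO, 1.48, 1.66 and 1.76 in fl and 0.239, 0.421 and 1.43 in Gr_1. Il2rb, a chain of the IL-2 and IL-15 receptors, had 4.66, 9.04 and 6.74 FPKM in KO, 1.44, 2.08 and 2.84 in fl and 0.611, 1.36 and 1.5 in Gr_1. KO B was the highest and KO A the lowest KO library for both.

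The same order of libraries, KO A below KO C below KO B, held in all 12 of these NK cell genes, in 5 of 6 T cell genes, in 9 of 12 basophil and mast cell genes, in all 7 progenitor genes and in 70 of the 102 higher genes. Xist had this order too, so that it cannot be told apart from the share of female RNA. Ncr1, the activating receptor NKp46 of NK cells, had 2.03, 4.36 and 3.13 FPKM in KO, 0.472, 1.13 and 0.632 in fl and 0.162, 0.358 and 0.284 in Gr_1. The granzyme gene Gzma had 5.65, 12.4 and 8.59 FPKM in KO, 3.21, 4.79 and 4.41 in fl and 1.24, 1.42 and 0.931 in Gr_1. Klra7, a Ly49 receptor, had 1.79 to 3.49 FPKM in KO, 0.0855 to 0.419 in fl and 0.0435 to 0.0987 in Gr_1, the last on 5 fragments in all, and shares sequence with other Ly49 genes, so how fragments were split among them is uncertain. Its neighbour Klra13-ps, a Ly49 pseudogene, was chosen as well.

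T cell genes followed with 6 of 17 tested in the higher set (35.3%, beside 0.830% of all genes) and none in the lower. Their median differences were 0.92 from fl and 0.24 from Gr_1. Trac, Trbc1, Trbc2 and Tcf7 passed the filter only through the KO libraries and could only be chosen as higher. Of the other 11 tested, limma called 6 higher in KO than in fl, and it called 5 (Ccr7, Cd3d, Cd6, Il7r and Lef1) lower in KO than in Gr_1. The shares over all genes were 4.48% and 28.9%. When each group had to average 1 FPKM, the list gave 1 higher gene. Trbc2, a constant segment of the T cell receptor beta chain, had 4.51, 8.11 and 4.98 FPKM in KO, 0.985, 0.696 and 1.17 in fl and 0.631, 0.796 and 1.53 in Gr_1. Trbc1, the alternative constant segment, had 5.17, 7.18 and 5.52 FPKM in KO, 0.667, 2.12 and 0.939 in fl and 0.250, 0.735 and 0.750 in Gr_1. Trac, the constant segment of the alpha chain, had 1.94, 2.16 and 2.70 FPKM in KO, and 0.200 to 0.670 in the other 6 libraries.

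The 3 genes Trbc1, Trbj2-7 and Trbc2 are neighbours on chromosome 6, from 41538218 to 41548352 (GRCm38), and formed the longest run of adjacent chosen genes. Trbj2-7 rested on 5 fragments, all in KO. Tcf7, a transcription factor of T cells, progenitors and the Wnt pathway, had 2.03, 4.94 and 3.05 FPKM in KO, 0.796, 1.03 and 1.34 in fl and 0.523, 0.860 and 0.714 in Gr_1. It was the only Wnt pathway or target gene chosen of 27 tested, beside 0.830% higher and 0.675% lower over all genes. Gimap3, of the GTPase family of lymphocyte survival genes, had 3.48, 8.19 and 5.48 FPKM in KO, 0.970, 1.36 and 1.64 in fl and 1.11, 1.69 and 1.82 in Gr_1. Of the 6 Gimap genes tested, 3 were in the higher set, beside 0.830% of all genes.

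Markers of these cell types were also summed, in a panel of 5 genes each. The T cell panel summed to 9.47 to 13.7 FPKM in KO, 1.63 to 2.12 in fl and 5.36 to 6.14 in Gr_1, and the NK cell panel to 13.1 to 26.1, 6.50 to 9.62 and 2.31 to 3.14. The basophil and mast cell panel summed to 141 to 199, 41.9 to 87.9 and 37.2 to 69.1 FPKM. All genes of the NK cell panel and of the basophil and mast cell panel are in the higher set, so the rule fixed that their sums separate KO. Of the T cell panel, Trac and Trbc2 are in the higher set, while limma called Cd3d lower in KO than in Gr_1. The part of cell numbers in these results was not tested. The B cell and eosinophil panels did not separate KO from both wild-type groups, with B cell sums of 180 to 231 FPKM in KO, 217 to 254 in fl and 548 to 610 in Gr_1, and eosinophil sums of 4416 to 9000, 4037 to 8591 and 1290 to 1662.

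**Figure D3:**
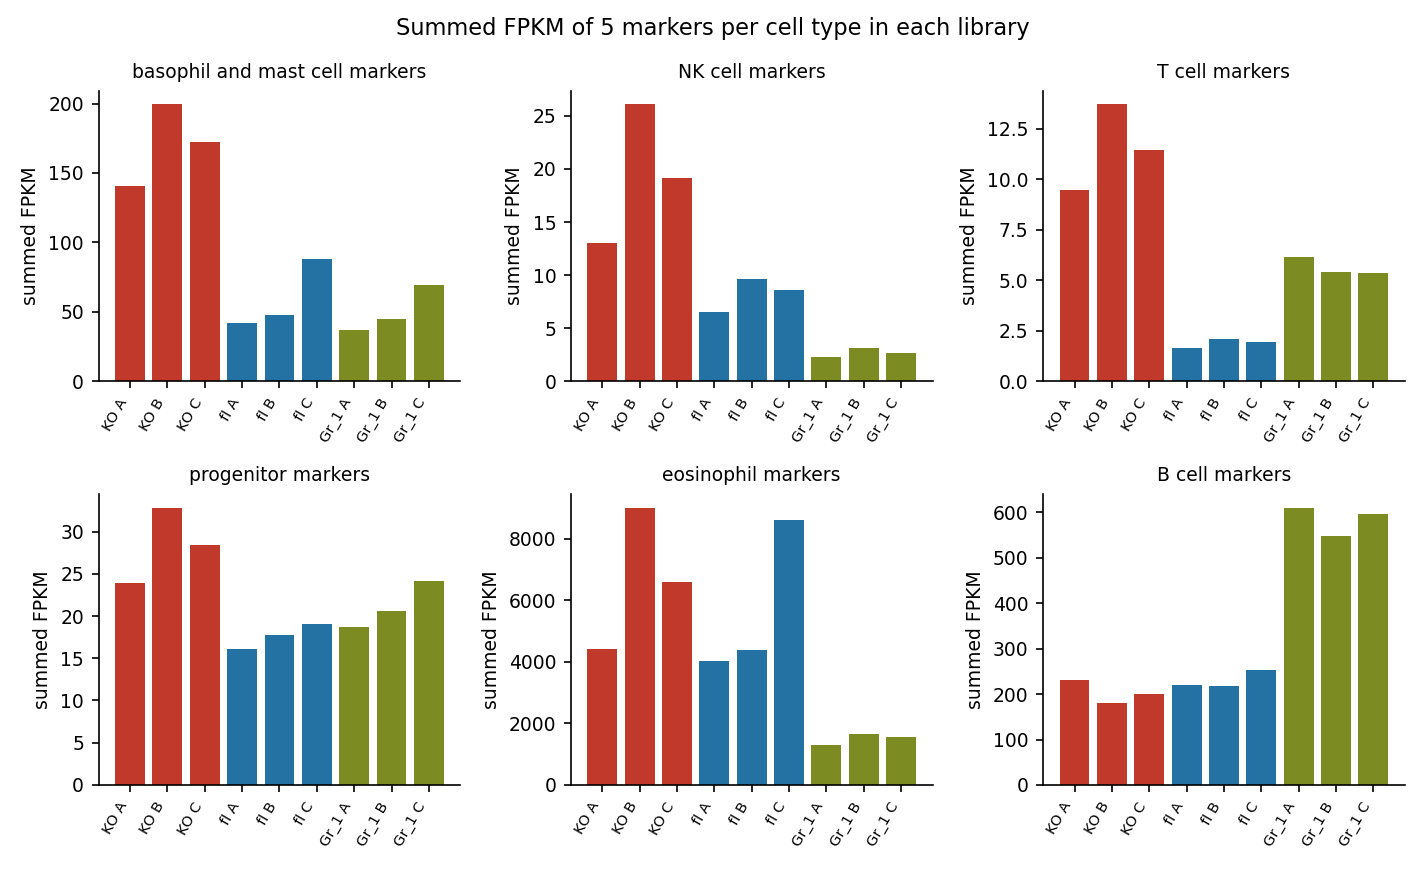
Bars give the summed FPKM of 5 markers per cell type in each of the 9 libraries, from an axis that starts at 0. The basophil and mast cell, NK cell and T cell panels stand above all fl and Gr_1 libraries in KO, with KO B the highest, while the eosinophil panel overlaps fl and the B cell panel peaks in Gr_1. All genes of the basophil and mast cell panel and of the NK cell panel were chosen as higher in KO.

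Progenitor genes gave 7 higher genes and 1 lower gene of 26 tested, beside 0.830% higher and 0.675% lower over all genes. Their median differences were 0.46 from fl and 0.36 from Gr_1. Cd34, a sialomucin on stem and progenitor cells, had 4.67, 7.21 and 5.64 FPKM in KO, 1.61, 2.10 and 2.30 in fl and 1.69, 2.48 and 2.30 in Gr_1, a KO mean 2.91-fold above fl. Muc13, a transmembrane mucin, had 4.16, 8.31 and 5.77 FPKM in KO, 1.36 to 2.12 in fl and 1.89 to 3.45 in Gr_1. Of the other 18 progenitor genes tested, limma called 6 higher and 1 (Cd48) lower in KO than in fl, and 5 higher and 5 (Erg, Ifitm1, Msi2, Nrgn and Sox4) lower than in Gr_1. Over all genes these shares were 4.48% and 6.52% against fl, and 26.7% and 28.9% against Gr_1. The list gave 6 higher genes when each group had to average 1 FPKM and 1 with a filter of 5 FPKM. The summed progenitor panel was 24 to 32.8 FPKM in KO, 16.1 to 19.1 in fl and 18.7 to 24.2 in Gr_1, where KO A and Gr_1 C overlapped.

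**Figure D4:**
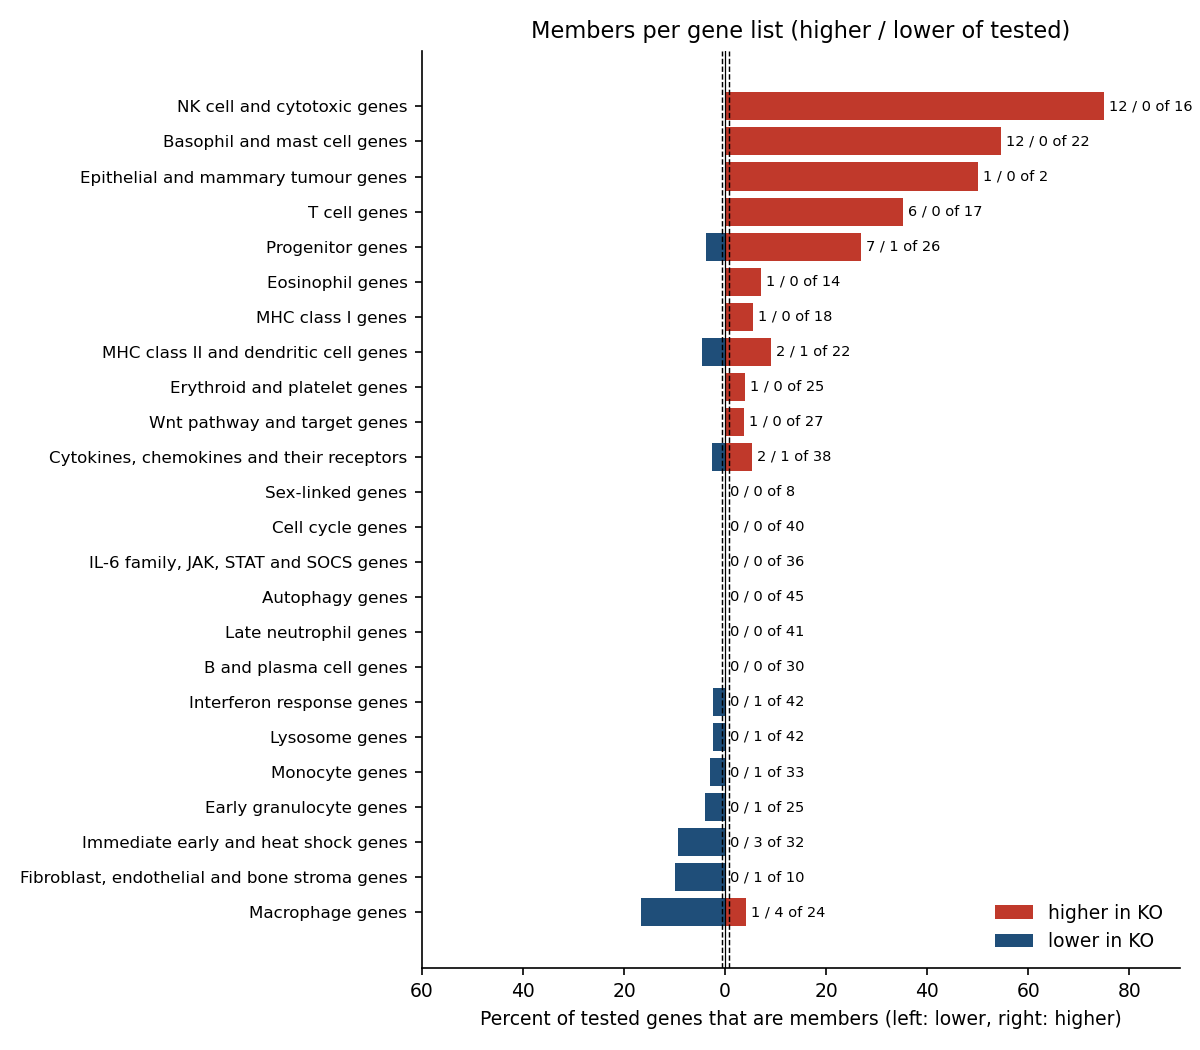
Bars give the percent of each list's tested genes that were higher (right, red) or lower (left, blue) in KO by the rule, with the counts beside them, and dashed lines mark the share over all genes (0.830% and 0.675%). NK cell, basophil and mast cell, T cell and progenitor lists reach from 26.9% to 75% higher, and macrophage genes 16.7% lower, while the epithelial list rests on 2 tested genes.

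Lyz2 was the lower gene with the largest difference by a wide margin. It encodes lysozyme M of neutrophils and macrophages, and it is also the locus that carries Cre in LysM-Cre mice, a line in wide use for deletion in myeloid cells, although the labels name no such line. Lyz2 (ENSMUSG00000069516) had 53.2, 59.8 and 56.0 FPKM in KO, 8670, 8827 and 9998 in fl and 10694, 10808 and 10486 in Gr_1, a mean 163-fold higher in fl than in KO. Its paralog Lyz1 (ENSMUSG00000069515), the lysozyme P gene, went the other way, with 50.2, 17.2 and 36.0 FPKM in KO, 5.15, 6.10 and 6.34 in fl and 6.08, 5.19 and 5.88 in Gr_1. In the KO libraries the levels of the paralogs were thus of the same order, whereas in wild type Lyz2 exceeded Lyz1 by 3 orders of magnitude. KO B had the lowest Lyz1 and the highest Lyz2 of the KO libraries. Because the paralogs are near copies, how fragments were split between Lyz1 and Lyz2 is uncertain.

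The genes are neighbours on the minus strand of chromosome 10 (GRCm38), Lyz2 from 117277331 to 117282321 and Lyz1 from 117287797 to 117292868. The 130 bases before each start are printed to show how alike the start regions of this oppositely changed pair are. They come from RefSeq (GRCm38.p6), and capitals mark the bases that differ. The spans above are those of GENCODE M21, in which Lyz2 starts farther upstream than in RefSeq, so the Lyz2 window reaches into its span.
Lyz2 chr10:117282273-117282402, minus strand: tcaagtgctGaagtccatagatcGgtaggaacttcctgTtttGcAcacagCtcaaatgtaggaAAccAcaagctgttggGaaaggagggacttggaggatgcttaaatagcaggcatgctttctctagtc
Lyz1 chr10:117292869-117292998, minus strand: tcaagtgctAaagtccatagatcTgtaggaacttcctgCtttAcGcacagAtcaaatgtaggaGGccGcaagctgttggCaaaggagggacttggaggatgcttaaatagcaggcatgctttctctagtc

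The windows differed at 10 of 130 bases and were 92.3% alike. Within 10 Mb of Lyz2, 69 other genes passed the filter, and Lyz1 (higher) and Gm48591 (lower) were the only ones chosen. Within 10 Mb of Socs3 on chromosome 11, 166 other genes passed, and Cd7 (higher) and Cd300a (lower) were the only ones chosen. Over all chromosomes the share chosen was 1.51%. Chromosome 6 had the highest share of those with over 100 genes, at 3.74% (16 higher and 9 lower of 669), and holds the T cell receptor beta, Gimap and NK receptor gene clusters and the kappa light chain locus. Chromosome 12, which holds the heavy chain locus, followed at 2.71% (3 higher and 11 lower of 517).

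Immunoglobulin variable segments made up 14 of the 83 lower genes. Of 83 Ighv segments tested, 9 were lower and 1 higher. Of 66 Igkv segments 4 were lower and 1 higher, and of 3 Iglv segments 1 was lower. Beside these counts, 0.675% of all genes were lower and 0.830% higher. Ighv2-9-1 had 0.818, 0.748 and 0.498 FPKM in KO, 1.72, 6.53 and 9.38 in fl and 5.24, 4.63 and 8.12 in Gr_1, on 16 fragments in KO. Igkv1-110 had 2.51, 5.96 and 6.76 FPKM in KO, 7.14, 14.7 and 42.8 in fl and 15.2, 37.1 and 8.88 in Gr_1, so its wild-type libraries spread widely. The summed Ighv level was 230 to 261 FPKM in KO, 179 to 317 in fl and 500 to 521 in Gr_1, and the summed Igkv level 177 to 299, 141 to 318 and 312 to 318 FPKM, so that KO lay inside the fl range in both. The summed Iglv level was 32.6, 26.7 and 22.8 FPKM in KO A, B and C and 27.2, 36.4 and 42.1 in fl, with KO B and KO C below the fl range. Segments share sequence, and their fragments may be divided unevenly among them.

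Genes of the immediate early response gave 3 lower genes of 32 tested (9.38%, beside 0.675% of all genes) and no higher gene. Their median differences were -0.31 from fl and -0.20 from Gr_1. Of the other 29, limma called 2 higher and 8 lower in KO than in fl, and 5 higher and 12 lower than in Gr_1. Over all genes these shares were 4.48% and 6.52% against fl, and 26.7% and 28.9% against Gr_1. Fos, a subunit of the AP-1 transcription factor, had 252, 279 and 252 FPKM in KO, 575, 564 and 573 in fl and 540, 568 and 450 in Gr_1. The wild-type means exceeded KO 2.19-fold and 1.99-fold. Zfp36, which encodes the mRNA-destabilizing protein tristetraprolin, had 214, 223 and 214 FPKM in KO, 350, 335 and 396 in fl and 347, 328 and 301 in Gr_1. For both genes the 3 KO libraries lay close together.

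Klf2, a transcription factor that holds myeloid and lymphoid cells quiescent, had 65.8, 46.2 and 59.1 FPKM in KO, 103, 108 and 76.8 in fl and 213, 247 and 182 in Gr_1. Its order was KO, fl, Gr_1 with no overlap. Cebpb encodes C/EBPβ, the factor of the series title and of emergency granulopoiesis. It had 108, 74.9 and 136 FPKM in KO, 154, 151 and 228 in fl and 207, 248 and 217 in Gr_1, with the highest KO library 1.11-fold below the lowest wild-type library, fl B.

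Macrophage genes gave 4 lower genes, Lyz2, Axl, Siglec1 and Hmox1, and 1 higher gene, Lyz1, of 24 tested. Over all genes the shares were 0.675% lower and 0.830% higher. The list had median differences of -0.51 from fl and -0.80 from Gr_1. Of the other 19, limma called 2 higher and 9 lower in KO than in fl, and 6 higher and 9 lower than in Gr_1. Over all genes these shares were 4.48% and 6.52% against fl, and 26.7% and 28.9% against Gr_1. Axl, a receptor tyrosine kinase for the uptake of dying cells, had 3.99, 1.56 and 2.79 FPKM in KO, 5.86, 4.64 and 5 in fl and 9.21, 9.07 and 8.67 in Gr_1. Siglec1, the sialoadhesin of tissue macrophages, had 1.63, 0.393 and 1.06 FPKM in KO, 2.52, 2 and 2.18 in fl and 2.64, 1.72 and 2.44 in Gr_1. Hmox1, the heme oxygenase gene, had 30.3, 16.6 and 23.2 FPKM in KO, 34.7, 37.9 and 38.3 in fl and 62.5, 58.9 and 49.6 in Gr_1. In all 3 genes KO A was nearest to wild type and KO B farthest, and without KO A the list gave 9 lower genes.

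Lgals3, the gene of galectin-3 of monocytes and macrophages, had 192, 121 and 152 FPKM in KO, 252, 251 and 268 in fl and 326, 293 and 297 in Gr_1. It was the only one of 33 monocyte genes in the set. Of the other 32, limma called 25 lower in KO than in fl and 20 higher but 5 lower in KO than in Gr_1, so that KO lay between the groups for many. The shares over all genes were 6.52%, 26.7% and 28.9%. Late neutrophil genes gave none of 41, with 25 called higher in KO than in fl and all 41 lower than in Gr_1, beside 4.48% and 28.9%. Autophagy, cell cycle, B and plasma cell, and IL-6, JAK, STAT and SOCS lists gave none of 45, 40, 30 and 36. With 0.830% higher and 0.675% lower over all genes, lists of this size hold few or no chosen genes at the background share.

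Irf4, Il18, Ifitm3 and Tlr2 were also among the lower genes. Irf4 was the only one of 42 interferon response genes tested that was, beside 0.675% of all genes. Irf4, an interferon regulatory factor of dendritic cells and alternatively activated macrophages, had 4.31, 3.35 and 3.33 FPKM in KO, 5.78, 5.36 and 6.13 in fl and 14.5, 11.1 and 18.1 in Gr_1. Il18, an IL-1 family cytokine, had 2.34, 1.25 and 1.87 FPKM in KO, 3.97, 3.64 and 2.62 in fl and 3.45, 3.79 and 3.94 in Gr_1. Ifitm3, which encodes an antiviral membrane protein, had 548, 324 and 410 FPKM in KO, 784, 746 and 778 in fl and 841, 686 and 743 in Gr_1. Tlr2, the receptor for bacterial lipoproteins, had 31.6, 28.4 and 28.7 FPKM in KO, 47.2, 48.4 and 42.9 in fl and 59.9, 55.6 and 81.3 in Gr_1. Irf4 and Tlr2 were highest in Gr_1, while Il18 and Ifitm3 had like levels in fl and Gr_1.

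Ctsk, the collagen-cleaving cathepsin K of osteoclasts and macrophages, had 1.70, 2.31 and 1.76 FPKM in KO, 8.39, 4.24 and 3.86 in fl and 13.5, 3.31 and 6.11 in Gr_1. The Gr_1 libraries of this gene spread the most. Arl5c, of the ARF-like small GTPases, had 13.2, 8.48 and 11.2 FPKM in KO, 22.3, 26.5 and 28.0 in fl and 22.9, 16.3 and 28.3 in Gr_1. The microRNA gene Mir27a had 10 fragments over the KO libraries, 26 in fl and 25 in Gr_1.

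**Figure D5:**
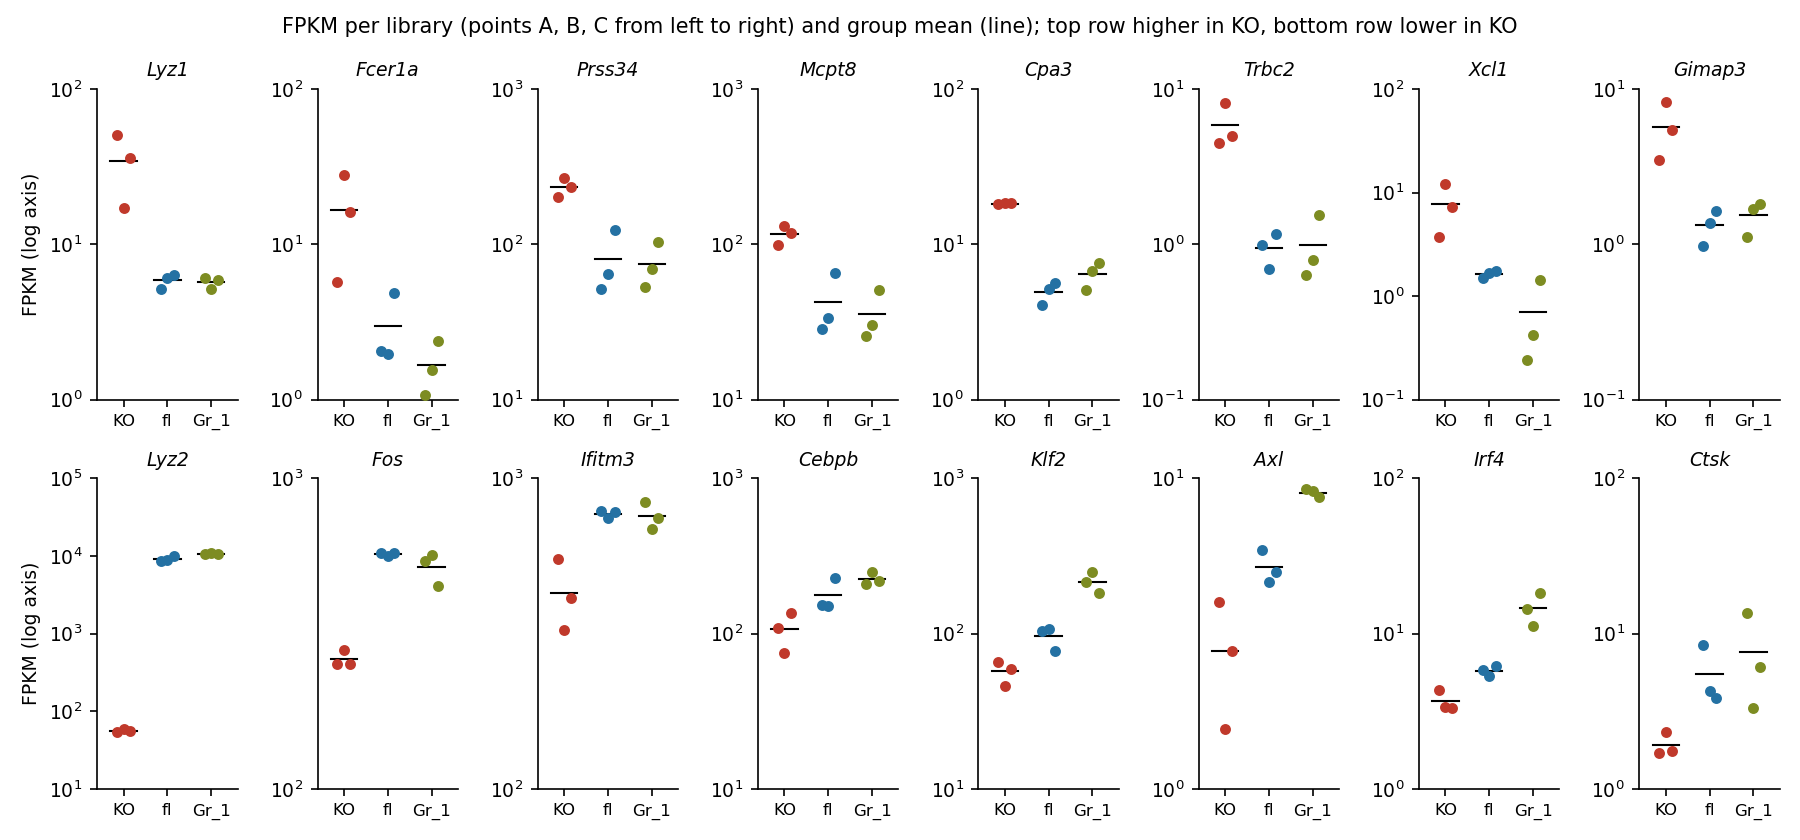
Points give FPKM in each library on log axes, with libraries A, B and C from left to right in each group and lines at the group means. The top row holds 8 higher genes and the bottom row 8 lower genes, and in each the KO points lie apart from all fl and Gr_1 points.

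Of the 63 higher genes that were in no list, Mir7007 and Trbj2-7 had no fragment in fl and Gr_1 and so no fold. In the other 61 the smaller of the folds from fl and Gr_1 ran from the limit of 1.5 to 8.23, with a median of 1.78, and in the 71 such lower genes from 1.5 to 8.54, with a median of 1.73. The top of the range of these 61 was Mid1-ps1, a pseudogene annotated on the Y chromosome, with 1.17, 2.91 and 3.13 FPKM in KO and 0.0386 to 0.350 in the other 6 libraries. KO B had it at 2.91 FPKM although its Y-linked genes were at 0, and the gene shares sequence with Mid1, so its fragments cannot be assigned with certainty. Wdfy1, an endosomal adaptor protein gene, had 12.7, 12.5 and 12.9 FPKM in KO, 4.15, 4.42 and 3.89 in fl and 6.11, 6.80 and 6.74 in Gr_1. Unlike most of the higher genes, it did not differ between KO A and KO B by more than 1.1-fold. H2-Q7, a non-classical class I gene that has near copies, had 7.14, 22 and 12.3 FPKM in KO and 4.05 to 6.44 in the other 6 libraries.

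Limma on log2(FPKM + 1) over all 12289 genes gives the background for these sets. Of the 102 higher genes, 77 were called higher in KO than in fl at an adjusted p under 0.05, beside 4.48% of all genes, and 98 higher than in Gr_1, beside 26.7%. Of the 83 lower genes, 46 were called lower than in fl, beside 6.52%, and 75 lower than in Gr_1, beside 28.9%. The rule used these contrasts, so the counts are no support for the sets. They also moved when single libraries were left out. Without KO C, limma called 28 of the higher and 17 of the lower genes in KO against fl, and without KO B 41 and 29. Leaving out fl A gave 45 and 26 such genes, and leaving out fl B gave 48 and 21. Of the lower genes it called 30 in that contrast without fl C and 30 without Gr_1 A. In KO against Gr_1, 65 of the higher genes were called without KO C and 63 without KO B. After rescaling without the 10 most abundant genes the split over all genes turned from 551 higher and 801 lower to 812 and 577 in KO against fl, and from 3287 and 3556 to 4800 and 2560 in KO against Gr_1.

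Gr_1 and fl were compared within the sets, a contrast that the rule did not rank on, although genes with close fl and Gr_1 levels passed it more easily. Of the 83 lower genes, limma called 20 higher and 1 (Ube4bos2) lower in Gr_1 than in fl, beside 30% and 31.4% of all genes. Of the 102 higher genes it called 6 higher and 11 lower. All 4 shares thus lay below the background. The Gr_1 mean exceeded the fl mean in 56 of the 83 lower genes, 46 of the 102 higher genes and 47.7% of all genes.

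Among the lower genes called higher in Gr_1 than in fl were Klf2 by 1.156 ± 0.17 (log2(FPKM + 1), SE; limma, adjusted p = 0.000462, n = 3 per group) and Irf4 by 1.18 ± 0.16 (limma, adjusted p = 0.000228). For both, all 3 Gr_1 libraries lay above all 3 fl libraries. The largest such differences were those of Myl4, an atrial myosin light chain gene, at 1.84 ± 0.17 (limma, adjusted p = 3.17e-05), and Cecr2, a chromatin remodelling gene, at 1.44 ± 0.12 (limma, adjusted p = 1.92e-05). Both were low in KO and fl and higher in Gr_1, and Myl4 had 1.17, 0.456 and 0.783 FPKM in KO, 1.73, 1.36 and 1.38 in fl and 9.65, 8.07 and 6.36 in Gr_1. For such genes, chosen as lower in KO and called higher in Gr_1 than in fl, KO had to be nearer to fl than to Gr_1.

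Of the 11 higher genes called lower in Gr_1 than in fl, 5 were NK cell genes, that is 5 of the 12 in the set, beside 31.4% of all genes. The difference between these shares was not tested. Gzma differed by -1.22 ± 0.24 (limma, adjusted p = 0.0019, n = 3 per group), Klrd1, a subunit of the CD94 receptors, by -0.93 ± 0.15 (limma, adjusted p = 0.000586), and Prf1, the perforin gene, by -0.49 ± 0.15 (limma, adjusted p = 0.0186). Cd7 and Ctsw of the NK cell list were called too, and so were Cyp11a1, Cd200r3 and Gata1 of the basophil, eosinophil and erythroid lists and Gmpr, Il17rb and Nlgn2. The choice of these genes, higher in KO and called lower in Gr_1 than in fl, fixed their order as KO, fl, Gr_1 from high to low. The mirrored choice fixed the reverse order for Klf2 and Irf4. The summed NK cell panel, which holds Gzma, Klrd1 and Prf1 and only genes of the higher set, was also highest in KO and lowest in Gr_1.

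Other motifs were counted in the same windows. In 250 bases before the start, on both strands, TTGCNNAA (bound by C/EBP factors) was in 21.3% of the higher genes (13 of 61), 8.11% of the lower genes and 7.68% of all 8427 genes with a window. TGACTCA (AP-1) was in 14.8%, 2.70% and 3.07%, and CACGTG (E-box) in 1.64%, 2.70% and 8.81%. TTCNNNGAA, which STAT factors bind, was in 6.56%, 5.41% and 6.03%, and the TCF and LEF motifs CTTTGAA and CTTTGTT in 4.92% and 4.92% of the higher genes against 3.35% and 3.09% of all. GAGGAA (PU.1 and other ETS factors) was in 31.1% of the higher genes and 23.4% of all, and AACNG (MYB) in 80.3% and 73.1%. ACTTTC (IRF factors) was in 19.7% and 10.8%. The higher genes have windows poorer in G and C, as given above, which these shares do not correct for.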

How the data were processed

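Per the file headers, the authors deposited FPKM of 54532 Ensembl genes, with 1 column for each library. Tools named in the submitters' processing notes are DESeq2 1.16.1 and featureCounts 1.5.0-p3, and builds are GRCm38 and mm10, without their roles. The aligner was not given in these sources. FPKM depend on the sum over all genes, so an abundant gene that differs between groups shifts all others. FPKM times the exon length of GENCODE M21 (GRCm38; 54495 genes matched and 37 did not) gave fragments, whole within 0.02 for 97.2% to 97.5% of values under 1000 fragments.

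The filter was 1 FPKM in at least 3 of 9 libraries. Fold values are ratios of mean FPKM, and log2 differences are on log2(FPKM + 1), which understates the change of low genes. Under R 4.3.3, limma 3.58.1 (trend option) fitted all 9 libraries with 1 term per group and 6 residual degrees of freedom, two-sided, with Benjamini-Hochberg adjustment over 12289 genes and a threshold of 0.05. In data simulated for KO against fl with 12289 genes it recovered 48 of 67 changes of 0.6 on the log2 scale, 60 of 67 of 1 and 66 of 66 of 2, with 6 false calls. Changes were placed only in genes with a mean log2(FPKM + 1) above 2 in fl, with independent normal noise and equal fl and Gr_1 means. The higher genes had a median of 1.28 FPKM in fl, below that level, so these rates do not carry over to such genes. Tables and figures used Python 3.11.15, numpy 2.4.6, pandas 2.3.3 and matplotlib 3.10.9.

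Genes, the 24 gene lists and the alternatives were chosen with earlier results of these data known. The naming rule takes, of chosen genes with a plain symbol, the 15 higher and 15 lower with the largest smaller-of-2 log2 difference, up to 3 per list and direction, Socs3, Lyz1, Lyz2, Xist, the Y-linked genes, those nearest the 1.5-fold limit and those within 10 Mb of Socs3 or Lyz2. Ms4a2, Ncr1, Gzma, Klrd1, Prf1, Cebpb, Hmox1, Tlr2, Wdfy1, Myl4, Cecr2, Ube4bos2 and those listed as the most even, as called in Gr_1 against fl or as holding AGATAA were named after their values were seen. Of the 185 chosen genes, 84 overlap another annotated gene, 63 of them one on the other strand, and the sources do not state whether counting used strand. Of the 185, 98 have a RefSeq promoter window.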

Additional observations from a re-analysis of the deposited data

How the results depend on the processing

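The number of higher and lower genes was 102 and 83. It became 56 and 27 with a fold limit of 2, 383 and 560 with none, 398 and 162 without the filter on low values, and 22 and 43 with a filter of 5 FPKM. With a mean of at least 1 FPKM in all 3 groups 47 were higher, rescaling without the 10 most abundant genes left 54 lower, and TPM gave 165 and 46. Leaving out 1 library gave 94 to 164 higher and 81 to 193 lower genes, with both maxima without KO A. The other limit is depth: 37 of the 185 genes rested on under 30 fragments in their lowest group.

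KO against fl had 1352 called genes, 794 when only these groups were fitted, and 573 to 1261 with 1 library left out (818, 730 and 573 when fl A, fl B or KO C was left out). Leaving out 1 library gave 5577 to 7554 calls of 6843 in KO against Gr_1 and 6445 to 7601 of 7550 in Gr_1 against fl. With the filter of 5 FPKM, 6 of the higher genes were called in Gr_1 against fl, against 17. Rescaling without the 10 most abundant genes moved the median log2 difference of all genes from 0.01 to 0.16 in KO against Gr_1, a shift of 0.15, from -0.03 to -0.11 in Gr_1 against fl and from -0.01 to 0.06 in KO against fl, where its sign turned. Of the higher genes 77 and of the lower genes 46 were called in KO against fl and 98 and 75 in KO against Gr_1. With 1 library left out these became 28 to 69, 17 to 42, 63 to 100 and 67 to 76. With the filter of 5 FPKM, 20, 21 and 42 were called (higher against fl, higher and lower against Gr_1), and of the lower genes 24 against fl without the filter and 28 when only these groups were fitted. These counts of chosen genes were added after seeing the data. The cause of these changes was not tested. The other 160 counts stayed within 1.5 times. Among the genes named by the rule, Xist and the Y-linked genes aside, no difference of KO from fl or Gr_1 changed sign. Genes named only after their values were seen were not covered. Of the values of single genes and lists, 1955 either kept their side of the threshold (single genes) or stayed within 1.5 times (list counts). Of single genes, 177 values fell out of the threshold and 42 came under it, and 18 list counts moved by over 1.5 times.

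Letters did not pair the libraries, with same-letter correlations from -0.06 to 0.14. The replicate block gave 133 higher and 109 lower genes and 1037 calls in KO against fl.

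Without KO C the rule gave 7 progenitor, 13 basophil and mast cell, 8 NK cell and 6 T cell genes in the higher set, against 7, 12, 12 and 6, and with a filter of 5 FPKM 1, 6, 2 and 1. These counts per list were added after seeing the data.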

Other observations

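Of 46 histone genes tested, Hist1h1c, Hist1h2bf and Hist1h2ad were among the lower genes, beside 0.675% of all genes. The other 43 summed to 113 to 118 FPKM in KO, 153 to 172 in fl and 125 to 187 in Gr_1, with no overlap of KO and the other libraries. Limma called 4 of these 43 lower in KO than in fl, and 5 lower and 1 higher than in Gr_1. The shares over all genes were 6.52%, 28.9% and 26.7%. Most replication-dependent histone mRNAs lack a poly(A) tail, so their level in a library depends on how RNA was selected, and this was not tested. Cell cycle genes gave no member of 40 tested, which is near the share over all genes of 0.830% higher and 0.675% lower.

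Rara, the gene of the retinoic acid receptor alpha of granulocyte differentiation, had 21.9, 11.9 and 16.6 FPKM in KO, 28.7, 29.8 and 27.2 in fl and 41.7, 41.4 and 34.2 in Gr_1. Siglech, a receptor of plasmacytoid dendritic cells, had 1.95, 1.28 and 1.62 FPKM in KO, 0.336, 0.555 and 0.448 in fl and 0.738, 0.260 and 0.591 in Gr_1, and here KO A was the highest library. Serpinb2, an inhibitor of plasminogen activators, had 14, 15.5 and 14.5 FPKM in KO, 10.2, 7.59 and 6.75 in fl and 7.54, 5.91 and 7.76 in Gr_1. Rara and Serpinb2 were named after their values were seen.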
